A study of Homo sapiens with 29 samples.

Results

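The genes described here are the numbered zinc finger (ZNF) genes of human chromosome 19, the chromosome on which most large clusters of this family lie. Of 58302 genes in the count table, 240 were protein-coding genes on chromosome 19 (GRCh38) with a symbol of ZNF and a number, and the 186 with at least 100 counts summed over all 29 libraries were taken as members. The other 54 were under that minimum, 7 of them without a count. Just outside it were ZNF880, ZNF773 and ZNF709, with 92, 96 and 99 counts, and just inside it ZNF564, ZNF813 and ZNF568, with 101, 103 and 106 counts. Most members hold a run of C2H2 zinc fingers, each of which contacts a few bases of DNA, and many also carry a KRAB domain at the front. KRAB proteins recruit the cofactor TRIM28 and the H3K9 methyltransferase SETDB1, and many of them silence families of transposable elements. Several ZNF promoters are known to become methylated in tumours, and decitabine, a cytidine analogue by which DNA methyltransferases are trapped, lowers DNA methylation in dividing cells.

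The libraries came from tumours of the human cell line MDA-MB-231, from a triple-negative breast cancer, grown orthotopically in SCID-beige mice, hosts without mature T and B cells. Resistant tumours were grown from 1 paclitaxel-resistant derivative of the line, and parental tumours from the line itself. Each was given decitabine (DAC, 0.4 mg/kg) with doxorubicin (1 mg/kg), decitabine alone, doxorubicin alone or vehicle, over 26 days with 2 cycles of 12 days and 2 days of rest between them. The resistant groups held 3 combination, 3 decitabine, 4 doxorubicin and 4 vehicle libraries, and the parental groups 4, 4, 3 and 4. Treatment began on day 16 after an injection of 1500000 cells for resistant tumours and on day 6 after 250000 cells for parental ones, so that the line and these settings cannot be told apart. Which mouse each library came from is not in the labels, and injections were bilateral, so that p-values measure the spread between libraries, some of which could share an animal. The study asked whether resistance goes with changes in expression that depend on DNA methylation, and whether decitabine undoes them.

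Libraries held 3398261 to 5382295 counts. The members took 0.201% to 0.293% of the counts of a resistant library and 0.228% to 0.286% of a parental one, and 178 to 184 members were counted in a resistant library, against 183 to 186 in a parental one. The markers of MDA-MB-231 listed for this work (VIM, CD44, EGFR, S100A4 and TFPI) were counted in every library. Of the receptor genes that define a triple-negative tumour, PGR was counted once in all 29 libraries and ESR1 did not pass 2.53 CPM (counts per 1000000 after scaling of the library sizes). ERBB2, whose amplification such tumours lack, was counted in every library, at 17 to 24.5 CPM in resistant and 14 to 20.5 CPM in parental tumours. The epithelial adhesion gene CDH1 had been listed with these receptors as low or absent, but it was not. It lay between 69.1 and 179 CPM in resistant libraries (median 112) and between 3.71 and 171 CPM in parental ones (median 99.3). The source of its reads was not tested. The summed level of 5 leukocyte markers was 1.70 to 7.35 CPM in resistant and 2.17 to 10.7 CPM in parental tumours, and CD3E was at 0 in all 29. The 4 fibroblast markers summed to 2.83 to 17.7 CPM in resistant and 4.43 to 16.0 CPM in parental tumours, the 4 endothelial markers to 5.37 to 28.5 and 10.7 to 19.6 CPM. The 3 adipocyte and the 3 muscle markers each summed to at most 1.13 CPM, with ADIPOQ at 0 throughout, and the 3 neural markers summed to 12.0 to 22.9 CPM in resistant and 13.9 to 35.1 CPM in parental tumours, nearly all of it SYT1. Reads of mouse stroma that align to human sequence would be counted too, and the part of other cells in any result was not tested. On the second principal component of 2000 genes (15.5% of the variance), resistant decitabine 2 (37.9) and parental vehicle 3 (33.1) lay beyond all other libraries, the highest of which was at 17.8.

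The promoters of 6 members are shown first, because 5 of these genes were nearly uncounted in resistant tumours and ZNF570 was both lower there and raised by decitabine. Each sequence is the RefSeq window on GRCh38.p14 from 250 bases before to 50 bases after the start of the gene, all 6 on the plus strand, and the capitals mark each CG, the pair of bases at which human DNA is methylated.
ZNF439: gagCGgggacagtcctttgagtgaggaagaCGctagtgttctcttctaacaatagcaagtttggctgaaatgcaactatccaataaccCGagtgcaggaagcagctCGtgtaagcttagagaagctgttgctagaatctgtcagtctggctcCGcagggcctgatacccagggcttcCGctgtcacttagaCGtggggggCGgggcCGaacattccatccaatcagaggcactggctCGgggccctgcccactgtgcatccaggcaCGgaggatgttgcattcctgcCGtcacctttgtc
ZNF844: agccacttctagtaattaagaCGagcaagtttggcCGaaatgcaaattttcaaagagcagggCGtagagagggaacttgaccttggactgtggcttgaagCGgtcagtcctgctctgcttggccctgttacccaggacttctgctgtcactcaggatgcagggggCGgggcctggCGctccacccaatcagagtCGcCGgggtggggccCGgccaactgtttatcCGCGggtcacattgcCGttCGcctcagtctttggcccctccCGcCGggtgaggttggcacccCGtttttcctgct
ZNF568: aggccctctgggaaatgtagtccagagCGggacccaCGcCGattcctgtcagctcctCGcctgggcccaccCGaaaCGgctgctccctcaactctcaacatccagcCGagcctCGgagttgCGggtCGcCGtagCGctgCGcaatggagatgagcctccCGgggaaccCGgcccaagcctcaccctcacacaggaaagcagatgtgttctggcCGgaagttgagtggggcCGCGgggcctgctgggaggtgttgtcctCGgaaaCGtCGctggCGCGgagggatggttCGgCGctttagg
ZNF525: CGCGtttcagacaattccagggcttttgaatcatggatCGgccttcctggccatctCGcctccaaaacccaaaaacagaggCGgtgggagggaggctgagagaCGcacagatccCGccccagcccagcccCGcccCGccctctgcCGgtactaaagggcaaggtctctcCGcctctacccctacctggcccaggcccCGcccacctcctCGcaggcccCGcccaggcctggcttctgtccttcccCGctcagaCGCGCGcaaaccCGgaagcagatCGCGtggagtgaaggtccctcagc
ZNF813: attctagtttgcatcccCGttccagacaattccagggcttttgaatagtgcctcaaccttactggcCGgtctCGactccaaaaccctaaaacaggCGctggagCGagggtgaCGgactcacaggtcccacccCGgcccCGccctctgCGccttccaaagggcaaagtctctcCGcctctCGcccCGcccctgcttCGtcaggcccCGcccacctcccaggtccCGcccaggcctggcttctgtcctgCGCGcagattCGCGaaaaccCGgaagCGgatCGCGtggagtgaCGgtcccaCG
ZNF570: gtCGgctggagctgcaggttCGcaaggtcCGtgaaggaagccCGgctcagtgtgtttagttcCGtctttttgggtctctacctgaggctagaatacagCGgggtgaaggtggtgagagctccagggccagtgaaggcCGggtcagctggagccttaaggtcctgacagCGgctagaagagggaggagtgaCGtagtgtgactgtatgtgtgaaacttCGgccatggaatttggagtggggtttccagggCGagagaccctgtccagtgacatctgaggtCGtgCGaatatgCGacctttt

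The ZNF439 window is chr19:11848476-11848775 and holds 12 CG pairs, a number that 52.9% of 27305 human promoter windows of the same length reach. The ZNF844 window, chr19:12064481-12064780, holds 16 (reached by 47.4%). The ZNF568 window, chr19:36916082-36916381, holds 25 (31.8%), and it also covers the start of ZNF829, which runs the opposite way. The ZNF525 window, chr19:53365455-53365754, holds 21 (39.5%), the ZNF813 window, chr19:53467483-53467782, holds 25 (31.8%), and the ZNF570 window, chr19:37467522-37467821, holds 14 (50.1%). Over the 165 members with a window in the RefSeq table the median was 21 CG pairs, against 14 over all promoters. The number of CG pairs is a property of the reference sequence. Methylation of these sites was not analysed here.

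Members were counted at low levels with 1 exception. The median member had 780.5 counts over all 29 libraries, and ZNF428, the most abundant, had 73138. ZNF428 ranged from 410 to 818 CPM in resistant libraries and from 389 to 781 CPM in parental ones, and its product is short, at 188 residues with 1 zinc finger match. Next came ZNF791, with a median of 89.2 CPM in resistant and 119 CPM in parental libraries, ZNF121 with 71.0 and 118 CPM, and ZNF358 with 67.5 and 100 CPM. ZNF787 (43.4 CPM in resistant and 37.5 CPM in parental libraries), ZNF226 (41.8 and 33.4 CPM), ZNF776 (32.1 and 32.9 CPM) and ZNF90 (36.0 and 29.6 CPM) complete the 8 most abundant. Libraries were made with a 3′ tag method, so that a level does not scale with transcript length and levels of different genes may be set side by side, apart from differences in how each 3′ end is primed. Exons of 57 members overlap those of another gene on the same strand and exons of 60 those of a gene on the other strand, 101 members in all, and the values of those genes are uncertain because the strand setting of the counting is not given in the sources used here. Related ZNF genes also share stretches of sequence, and reads of near-identical copies could have been lost or split.

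Summed over the members without ZNF428, the mean level was lower in resistant than in parental tumours by more than the SD of either group under vehicle, doxorubicin and the combination. Under vehicle the sum was 1646 ± 143 CPM in resistant and 2080 ± 182 CPM in parental tumours (SD, n = 4 each), and no resistant library, of which the highest was at 1842, reached the lowest parental one at 1848. Under doxorubicin it was 1792 ± 59.2 CPM in resistant tumours (SD, n = 4) and 2017 ± 45.6 CPM in parental ones (SD, n = 3), again without overlap, and under the combination 1788 ± 287 (SD, n = 3) and 2168 ± 113 (SD, n = 4). There the groups overlapped, with resistant combination 1 at 2034 above parental combination 2 at 2013, and the lowest library was resistant combination 2 at 1473. Under decitabine alone the sums were 1877 ± 106 CPM in resistant (SD, n = 3) and 1898 ± 96.7 CPM in parental tumours (SD, n = 4), and the groups overlapped. With ZNF428 included, the sums under vehicle were 2168 ± 196 and 2702 ± 271 CPM, and under decitabine 2549 ± 232 and 2416 ± 150 CPM. These sums describe the list and were not tested. In bulk tumours, fewer cells that express a gene and less RNA per cell cannot be told apart.

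**Figure D1:**
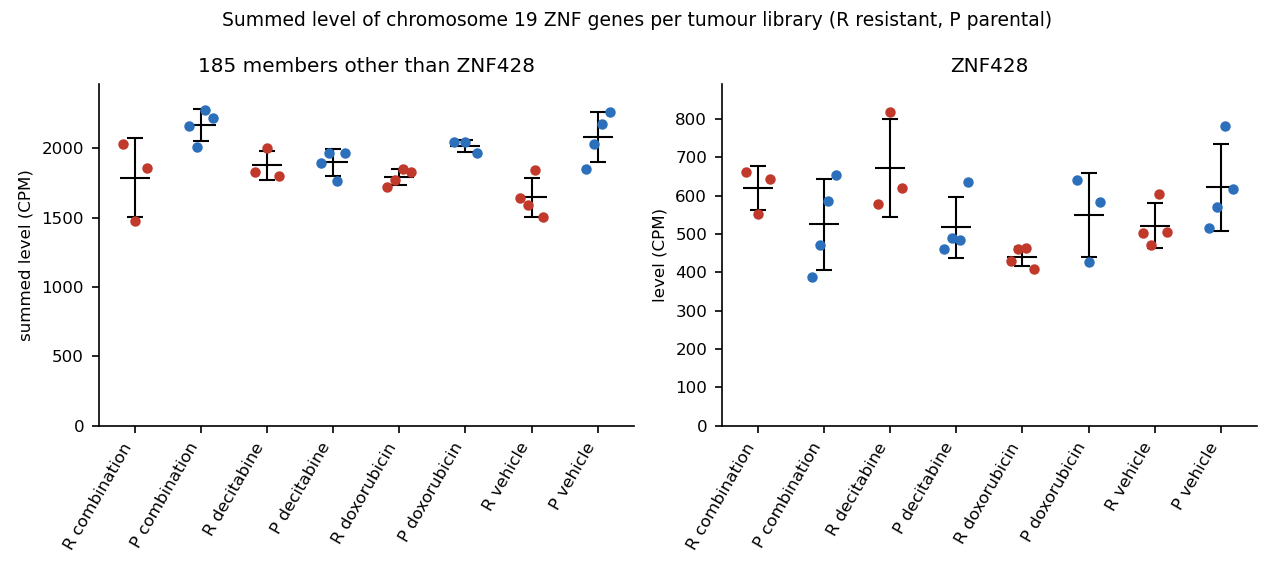
Summed level of the 185 members other than ZNF428 (left) and level of ZNF428 (right) in each library, in CPM, by treatment with the resistant group left of the parental one; points are libraries, bars the mean ± SD. Under vehicle the 4 resistant libraries lie between 1503 and 1842 and the 4 parental ones between 1848 and 2263, while ZNF428 overlaps between the lines under every treatment.

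Differences between the lines were tested for the 175 members that passed the filter on low counts, in 1 edgeR quasi-likelihood fit over 13495 genes, and an adjusted p under 0.05 counted as a call. The 11 members that did not pass were ZNF14, ZNF43, ZNF221, ZNF235, ZNF460, ZNF530, ZNF564, ZNF565, ZNF568, ZNF599 and ZNF813. Under vehicle, 40 members were lower and 3 higher in resistant tumours, or 22.9% and 1.71% of those tested, against 11.5% and 8.66% of all genes tested. The median log2 fold change was -0.17 for the members and 0.02 for all genes. The ZNF genes on other chromosomes gave 31 lower and 6 higher of 189, with a median of -0.15, and the other protein-coding genes of chromosome 19 gave 91 lower and 75 higher of 635, with a median of 0.02. These other genes, which also serve as neighbours below, include zinc finger genes with other symbols. Among them are ZNF585A, ZNF585B, ZFP14, ZFP82, ZFP30 and HKR1, all in block 9. No test between these lists was made. Passing the filter through parental tumours alone, as 13 members did, favours members that are lower in resistant ones. Among the 157 that passed within each line on its own, 35 were lower and 3 higher under vehicle, against 11.5% and 8.07% of the 12483 such genes.

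Lower calls outnumbered higher ones among the members under the other treatments as well. Under decitabine 19 members were lower and 8 higher (10.9% and 4.57%), both shares below the 13.1% and 13.7% of all genes. Under doxorubicin 23 were lower and 3 higher (13.1% and 1.71%), against 8.05% and 5.88%. Under the combination 36 were lower and 1 higher (20.6% and 0.571%), against 11.4% and 10.6%. In the average over the 4 treatments 55 members were lower and 20 higher (31.4% and 11.4%), against 23.4% and 22.6%. The count under the combination fell to 21 lower and 0 higher without resistant combination 2, a library in which the summed member level was 2027 CPM, against 2502 and 2696 in the other 2 of its group, and the count under doxorubicin fell to 16 lower and 1 higher without parental doxorubicin 3. All these counts include members that passed the filter through parental tumours alone. Among the 157 passing within each line, 14 were lower and 8 higher under decitabine (8.92% and 5.1%, against 13.3% and 12.9% of such genes). Under doxorubicin 19 were lower and 3 higher (12.1% and 1.91%, against 7.99% and 5.18%). Under the combination 30 were lower and 1 higher (19.1% and 0.637%, against 11.4% and 9.95%). In the average 48 were lower and 20 higher. No member was called higher under 1 treatment and lower under another. Only 17 of all 13495 genes tested were, so that this does not set the members apart.

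The line difference varied with the position of the members along the chromosome. The members fall into 16 blocks, separated wherever more than 1 Mb lay between a member and the next (coordinates on GRCh38, GENCODE 29). In block 2, chr19:7069444-9793180, 10 of 13 tested members were lower and 1 higher in the line average, with a median log2 fold change of -0.60, and 18 of the 22 other protein-coding genes among them were lower too and none higher, with a median of -0.69. In block 3, chr19:11483427-12633840, 9 of 18 members were lower and none higher (median -0.39), and both other genes tested there were lower. The only member of block 4, ZNF333, was also lower (log2 fold change -0.30). Lower calls prevailed as well among the genes that lie between these blocks and belong to no ZNF family: 32 of 44 between blocks 2 and 3 (1 higher), 27 of 46 between blocks 3 and 4 (2 higher) and 44 of 77 between blocks 4 and 5 (15 higher), with medians of -0.55, -0.35 and -0.33. From the start of block 2 to the start of block 5, 123 of 191 genes that are no members were lower and 18 higher. Between blocks 1 and 2, 15 were lower and 15 higher of 63, with a median of 0.02. The genes of that interval nearest to block 2, from CLPP to ADGRE1, were mostly lower, however. Those nearest to the start of block 5, from UPF1 to ATP13A1, were higher or not called. The stretch of lower genes thus does not begin and end with the blocks.

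In the median, members of blocks 2 and 3 lay close to their neighbours, though single members did not. ZNF439 and ZNF844, described below, lay far under theirs. ZNF699 (-1.11) and ZNF266 (-0.99) were also below, and ZNF558 (1.66) and ZNF443 (0.64) above. Each member was set beside the median of its 20 nearest other protein-coding genes: in block 2 the median difference was 0.07 on the log2 scale, with 5 of 13 members below their neighbours, and in block 3 it was -0.03, with 11 of 18 below. Blocks 2 to 4 held 20 of the 55 lower calls in the line average on 32 tested members, and under vehicle 16 of the 40. In the other 13 blocks, 35 members were lower and 19 higher of 143 in the line average (24.5% and 13.3%), where the lower share was near the 23.4% of all genes and the higher share under their 22.6%. Under vehicle 24 were lower and 2 higher (16.8% and 1.40%), against 11.5% and 8.66% of all genes. What moves the neighbours was not tested.

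Block 15, chr19:51571298-53580269, was unlike blocks 2 and 3. There 13 of 30 tested members were lower and 2 higher in the line average, with a median of -0.26, while the 2 other genes tested in it were not called (median 0.13) and the genes before and after it had medians of 0.31 and 0.15. Of these 30 members, 28 lay below the median of their 20 nearest other genes, and the median difference over the 30 was -0.42 on the log2 scale. As few other genes lie in the block, its members share most of these neighbours and are not separate comparisons. Over all blocks 111 of 175 members lay below their neighbours (median difference -0.12). In block 6 all 4 did (-0.70), and in block 12 13 of 18 (-0.15). Among the 28 of block 15 are ZNF320, ZNF480, ZNF525 and ZNF331. Block 5, chr19:19668796-21852125, held 5 higher and 4 lower members of 16, among them ZNF85, ZNF682 and ZNF253 (higher) and ZNF93 and ZNF430 (lower). In block 12, chr19:43525497-45076588, 1 member was higher and 2 lower of 18 although 8 of 17 other genes were higher, and in block 16, chr19:55476332-58481230, the largest with 43 tested members, 5 were higher and 7 lower, with a median of 0.06. Whether the blocks differ from each other was not tested.

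**Figure D2:**
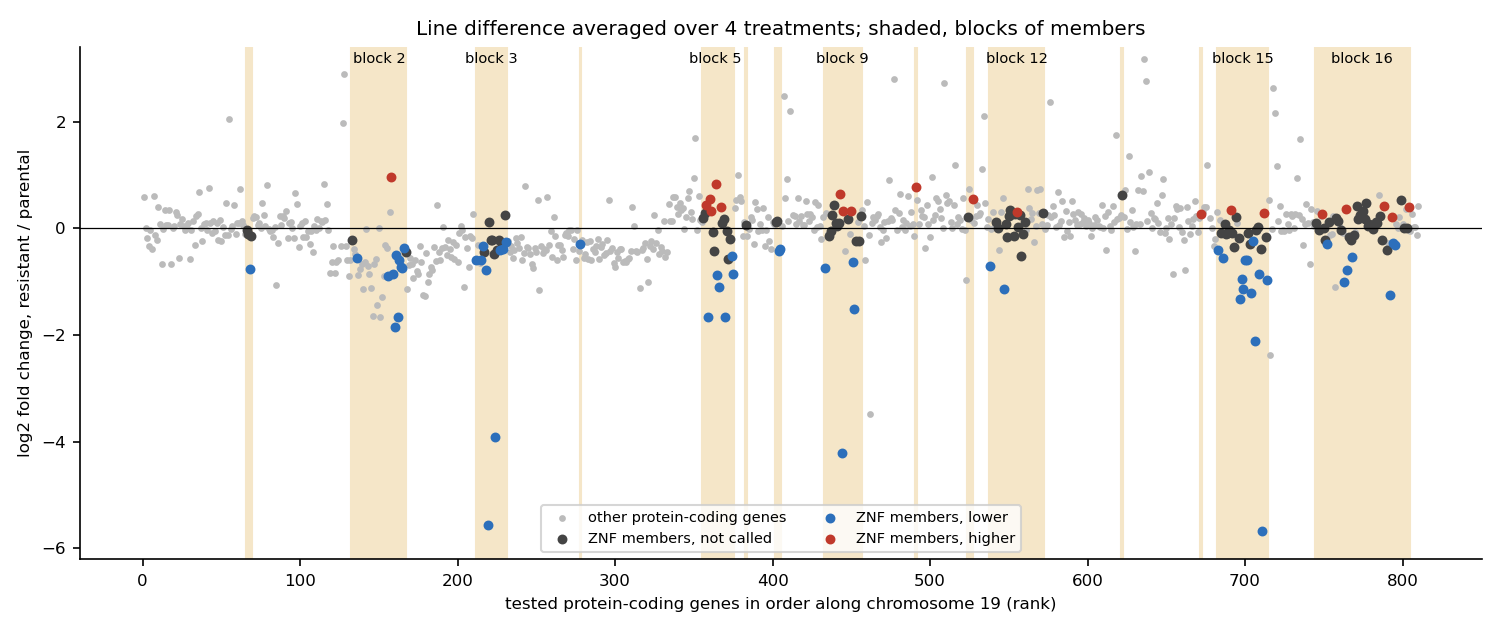
Log2 fold change of resistant over parental tumours, averaged over the 4 treatments, for tested members (coloured by call) and the other protein-coding genes (grey) in their order along chromosome 19; shaded bands are the blocks of members, and 4 grey genes above and 1 below the axis are not drawn. Grey genes in and after blocks 2 and 3 lie mostly below 0 together with the members there, while in block 15 members lie below the grey genes around them.

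ZNF439, ZNF844, ZNF829, ZNF568, ZNF525 and ZNF813 were nearly uncounted in resistant tumours under every treatment. ZNF439 (ENSG00000171291, chr19:11848726-11883750, plus strand) had 5 counts in the 14 resistant libraries, 10 of them at 0 and the highest at 2, against 289 counts in the 15 parental libraries, from 11 to 32 with a median of 20. No resistant library passed 0.433 CPM, while the parental ones lay between 2.54 and 6.30 CPM (median 4.17). Per unit of depth it was counted 51.0 times as often in parental tumours (exact 95% interval 21.6 to 158). Its neighbours differed far less: ZNF440, on one side, was lower by a log2 fold change of -0.78 (SE 0.20), and ZNF69, on the other, was not called (0.13, SE 0.12).

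ZNF844 (ENSG00000223547, chr19:12064699-12081565, plus strand), also in block 3, had 20 counts in resistant and 357 in parental libraries. Its resistant libraries reached at most 0.804 CPM, while the parental ones lay between 1.82 and 7.31 CPM with a median of 5.05, and the ratio of parental to resistant was 15.7 (10.0 to 26.1). The neighbours ZNF433 and ZNF20 were not called, with log2 fold changes of -0.48 (SE 0.27) and -0.40 (SE 0.23).

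ZNF829 (ENSG00000185869, chr19:36888124-36916291, minus strand) and ZNF568 (ENSG00000198453, chr19:36916329-36998700, plus strand) start 38 bases apart and run away from each other. The mouse counterpart of ZNF568 is known to repress a placental form of Igf2. ZNF829 had 6 counts in resistant and 178 in parental libraries, a ratio of parental to resistant of 26.2 (11.8 to 72.3), and ZNF568 had 4 and 102 counts, a ratio of 22.5 (8.52 to 84.1). Each was at 0 in 10 of 14 resistant libraries, and none of the resistant libraries reached the lowest parental one for either gene. The genes on both sides of the pair were higher in resistant tumours: ZNF345, by 0.64 (SE 0.17), and ZNF420, a KRAB protein described as a regulator of p53, by 0.32 (SE 0.13), a call that was lost in 14 of 29 fits without 1 library (adjusted p up to 0.125 by edgeR).

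ZNF525 (ENSG00000203326, chr19:53365693-53392217, plus strand) had 1 count in resistant and 157 in parental libraries, a ratio of parental to resistant of 138 (24.5 to 5500). ZNF813 (ENSG00000198346, chr19:53467735-53496255, plus strand) had 1 and 102 counts, a ratio of 90.0 (15.8 to 3590). Both lie in block 15, both were at 0 in 13 of the 14 resistant libraries, and each shares exons with 1 other gene on its strand. Next to ZNF525, ZNF845 was not called (-0.39, SE 0.19) and ZNF765 was higher (0.29, SE 0.10). Next to ZNF813, ZNF761 was not called (-0.16, SE 0.18) and ZNF331, an imprinted gene that is often methylated in tumours, was lower (-0.97, SE 0.13).

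With decitabine these 6 genes stayed below the level of parental tumours given decitabine. With decitabine alone the 3 resistant libraries together held 0 counts of ZNF439, 7 of ZNF844, 1 of ZNF829, 2 of ZNF568, 1 of ZNF525 and 0 of ZNF813, against 72, 97, 80, 28, 56 and 30 in the 4 parental libraries given decitabine. With vehicle the 4 resistant libraries held 1, 3, 2, 1, 0 and 1 counts, in the same order. The 4 parental ones held 69, 88, 37, 16, 23 and 18. For each gene the parental count was thus larger with decitabine than with vehicle, which adds to the gap. With 3 counts over the whole resistant group as the floor, in place of 0, ZNF439 was at least 15.8-fold lower and ZNF813 at least 6.58-fold lower in resistant tumours under decitabine. The exact 95% intervals, which take in the counting error of the parental libraries too, begin lower, at 12.5 and 5.03. For the genes with counts, the ratio of parental to resistant under decitabine was 9.12 (4.26 to 23.3) for ZNF844 and 9.21 (2.32 to 79.8) for ZNF568. It was 52.6 (9.18 to 2100) for ZNF829 and 36.8 (6.35 to 1480) for ZNF525. With the combination, ZNF525 and ZNF813 were again at 0, at least 14.3-fold and 7.47-fold lower by the same floor (exact intervals from 11.3 and 5.74), and ZNF439 had 2 counts, against 95 in parental tumours. Intervals and floors cover counting error only. The 4 of these genes that were tested (ZNF439, ZNF844, ZNF829 and ZNF525) passed the filter on low counts through parental libraries alone, which favours a lower level in resistant tumours. Neither the p-values nor the fitted fold changes of their line difference, which depend on the prior count, are therefore given here. ZNF568 and ZNF813 were not tested, but they reached the count minimum for members through parental libraries alone. Parental libraries held 102 counts of each, against 4 of ZNF568 and 1 of ZNF813 in resistant ones. Their choice thus also favours a lower level in resistant tumours, and the ratios given for them do not correct for it.

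**Figure D3:**
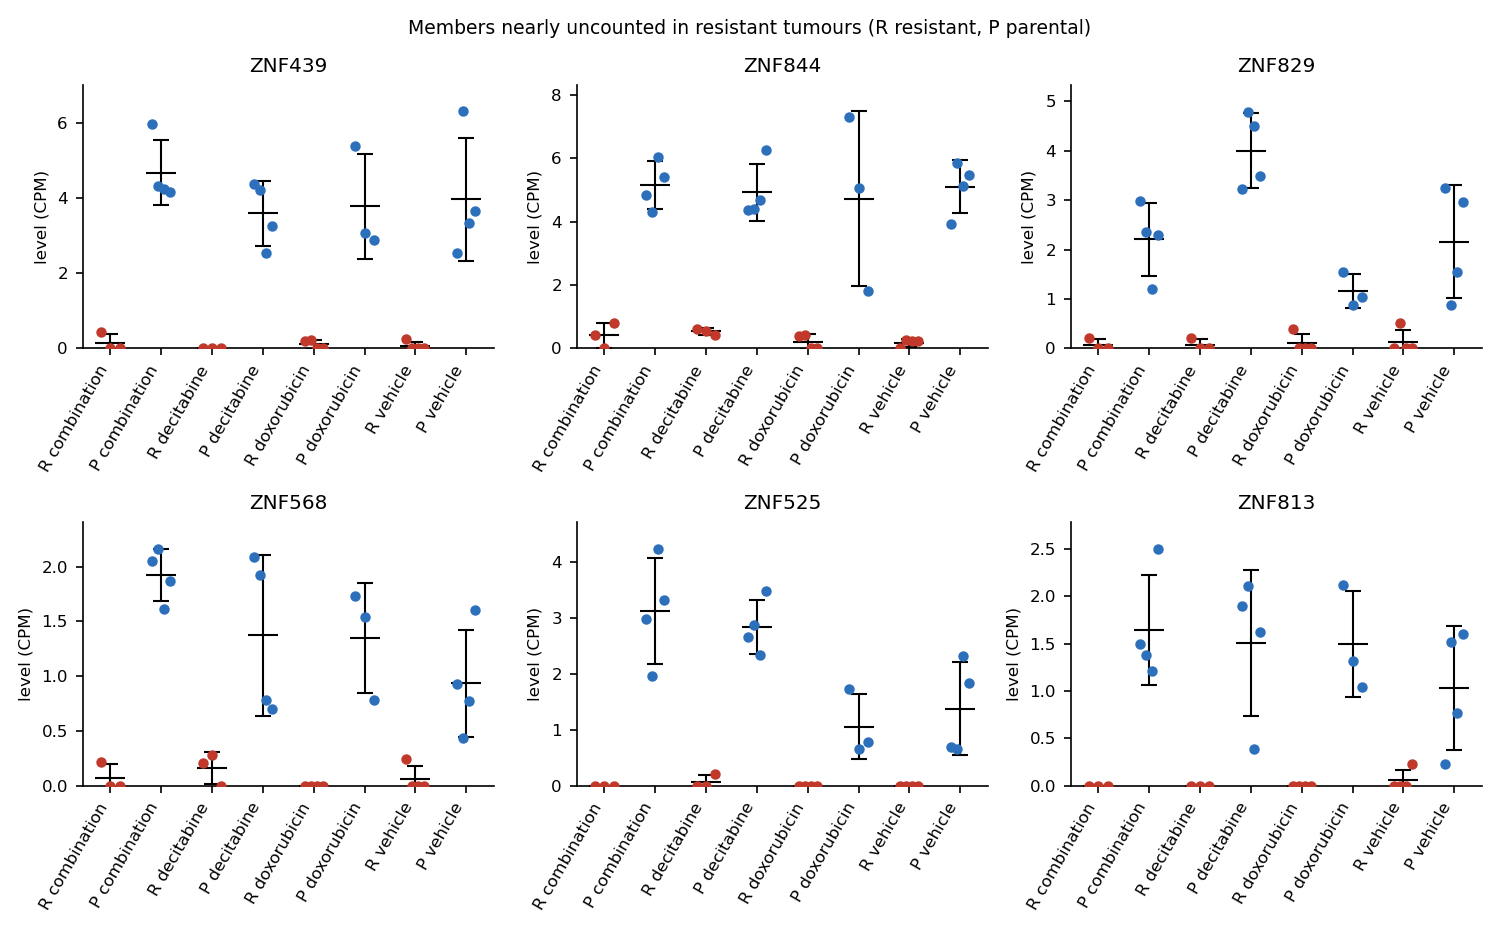
Level in CPM of 6 members in each library, by treatment with the resistant group left of the parental one; points are libraries, bars the mean ± SD. All 14 resistant libraries lie below all 15 parental ones for each gene, with and without decitabine. For ZNF813 the highest resistant and the lowest parental library held 1 count each, so that only the scaling of library sizes parts them. For ZNF568 they held 1 and 2 counts.

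In all, 11 members were lower in resistant tumours under each of the 4 treatments, 6.29% of those tested against 3.33% of all genes, and none was higher under all 4, against 2.45%. Among the 157 members that passed the filter within each line on its own, 7 were lower under all 4, or 4.46%, against 3.16% of the 12483 such genes. The 11 were ZNF439, ZNF525, ZNF829 and ZNF844, which passed through parental libraries alone (the call of ZNF829 under doxorubicin was lost without parental doxorubicin 1, adjusted p = 0.071 by edgeR), and ZNF93, ZNF121, ZNF266, ZNF320, ZNF430, ZNF480 and ZNF570. All 14 resistant libraries lay below all 15 parental ones for 13 members, 11 of them tested (6.29%, against 1.96% of all genes), and for no member did all lie above (1.38% of all genes). The same 4 genes are among these 11, and within the 157 members the count was 7 (4.46%, against 1.78%). The 13 include ZNF331 and ZNF561, which were each lower in 3 of the 4 treatments, besides ZNF568 and ZNF813. ZNF568 and ZNF813 reached the count minimum for members through parental libraries alone, and they are parted at the floor. The highest resistant and lowest parental library held 1 and 2 counts of ZNF568, and 1 count each of ZNF813 (0.226 and 0.232 CPM).

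ZNF93, known for repressing a set of LINE-1 retrotransposons, ranged from 0.226 to 2.67 CPM in resistant libraries (median 1.70) and from 2.51 to 8.19 CPM in parental ones (median 5.4). Its log2 fold change lay between -1.86 and -1.42 over the 4 treatments, with an average of -1.66 (SE 0.19, adjusted p = 3.21e-08 by edgeR). ZNF91, which represses the SVA elements, was not called: under vehicle it was at 17.2, 12.9, 23.1 and 13.1 CPM in resistant tumours and at 14.6, 20.2, 25.5 and 33.1 CPM in parental ones, and the groups overlapped.

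ZNF320 ranged from 0.678 to 6.28 CPM in resistant libraries (median 2.01) and from 7.22 to 16.3 CPM in parental ones (median 10.4), with an average log2 fold change of -2.12 (SE 0.17, adjusted p = 6.40e-11 by edgeR). Its exons overlap those of 3 other genes on its strand. ZNF266 ranged from 1.58 to 5.20 CPM (median 2.85) against 7.02 to 19.5 CPM (median 10.5), with an average of -1.66 (SE 0.15, adjusted p = 3.07e-10). For both genes no resistant library reached a parental one.

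ZNF121 is the one abundant gene among the 11. It ranged from 58.7 to 84.1 CPM in resistant libraries (median 71.0) and from 101 to 140 CPM in parental ones (median 118), an average log2 fold change of -0.73 (SE 0.06, adjusted p = 6.06e-11 by edgeR). It lies in block 2, where the median of its 20 nearest other genes was -0.75. ZNF480 (3.14 to 13 CPM in resistant and 17.5 to 27.4 CPM in parental libraries) and ZNF430 (4.52 to 10.6 and 8.97 to 16.2 CPM) had average log2 fold changes of -1.32 (SE 0.13) and -0.87 (SE 0.10). ZNF430 overlapped between the lines in single libraries, and ZNF480 did not.

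The remaining members with large differences were lower by less even margins. ZNF699, which passed the filter through parental libraries alone, averaged -1.85 (SE 0.33), from -1.01 under doxorubicin to -3.36 under decitabine. ZNF329 had 0.863 ± 0.852 CPM in resistant and 4.23 ± 1.53 CPM in parental vehicle tumours (SD, n = 4 each), and ZNF493 1.76 ± 1.01 and 8.36 ± 1.39 CPM, log2 fold changes of -2.31 (SE 0.56) and -2.26 (SE 0.40). ZNF331 averaged -0.97 (SE 0.13), with 8.01, 2.53, 6.10 and 3.62 CPM in resistant vehicle tumours and 10.9, 11.7, 12.9 and 11.9 CPM in parental ones. No resistant vehicle library of these 3 genes reached the lowest parental one.

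Higher members were fewer and their differences smaller and less even across treatments. Under vehicle ZNF546 had 3.16, 2.53, 2.94 and 1.81 CPM in resistant tumours, against 0.927, 1.09, 0.514 and 0.684 CPM in parental ones, without overlap (log2 fold change 1.65, SE 0.41, adjusted p = 0.00442 by edgeR). ZNF558, a repressor of the mitophagy gene SPATA18 in human neural cells, had 2.91, 2.53, 2.03 and 3.16 CPM, against 0.927, 1.09, 0.257 and 1.60 CPM (1.41, SE 0.44, adjusted p = 0.0215). The third, ZNF101, had a log2 fold change of 0.57 (SE 0.20, adjusted p = 0.0379). The call of ZNF558 did not hold without resistant vehicle 4 (adjusted p = 0.0569) or parental vehicle 3 (0.0798), and that of ZNF101 not without any of 4 of the 8 vehicle libraries (up to 0.109), while that of ZNF546 held in each such fit.

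In the line average the 8 largest higher differences were those of ZNF558 (0.96, SE 0.22), ZNF85 (0.82, SE 0.16), ZNF546 (0.77, SE 0.19), ZNF345 (0.64, SE 0.17), ZNF682 (0.56, SE 0.15), ZNF526 (0.55, SE 0.10), ZNF253 (0.44, SE 0.15) and ZNF417 (0.43, SE 0.15). The call of ZNF253 was lost without resistant combination 1 (adjusted p = 0.0608 by edgeR) and that of ZNF417 without resistant decitabine 2 (0.0588). ZNF558 stood 1.66 above the median of its 20 nearest other genes, since it lies in block 2. ZNF345 was called under doxorubicin alone, at 4.01, 4.58, 3.58 and 3.79 CPM in resistant tumours, against 1.54, 1.10 and 1.30 CPM in parental ones. ZNF526 was called under decitabine alone, at 30.4, 58.5 and 28.3 CPM, against 15.2, 18, 18.3 and 21.8 CPM, where its highest value comes from resistant decitabine 2, 1 of the 2 libraries that stood apart. A call under 1 treatment and none under another does not show that the treatments differ.

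**Figure D4:**
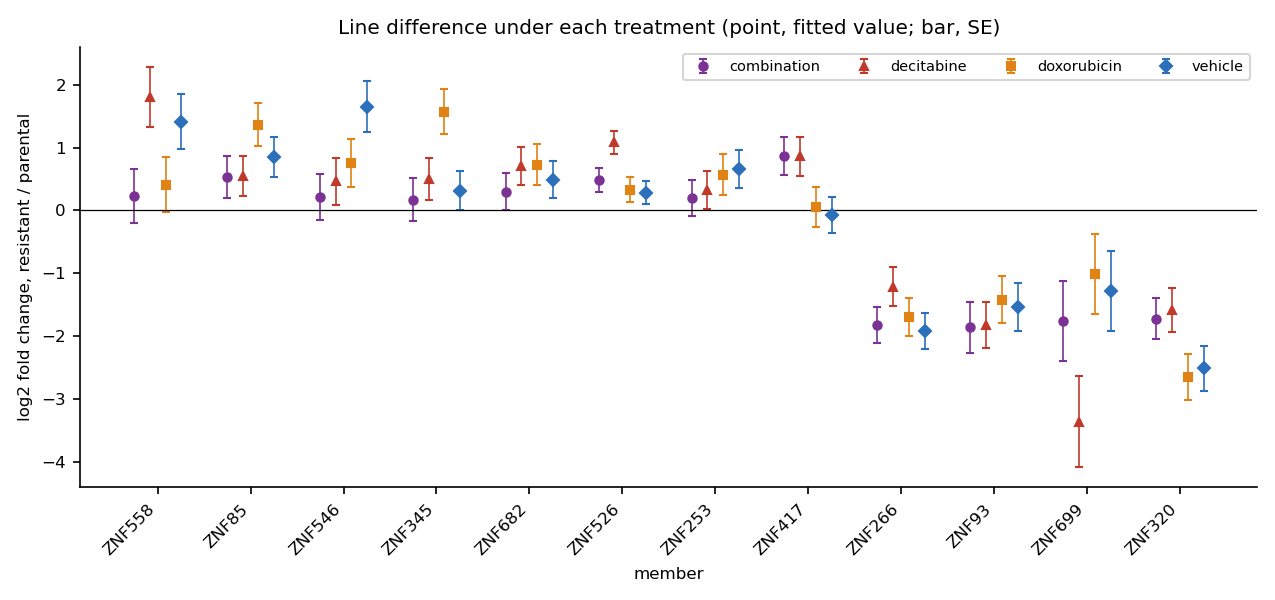
Fitted log2 fold change of resistant over parental tumours under the combination, decitabine, doxorubicin and vehicle, with its SE as the bar, for 8 higher and 4 lower members. ZNF266, ZNF93 and ZNF320 lie below -1 under each treatment, whereas ZNF558 runs from 0.23 under the combination to 1.80 under decitabine and ZNF345 from 0.17 to 1.57.

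Among 15 ZNF genes of chromosome 19 listed for a known role or for promoter methylation in tumours, 8 reached the count minimum. ZNF93 and ZNF331 were lower in the line average, and ZNF274, which recruits SETDB1 to the 3′ ends of ZNF genes, and ZNF420 were higher. ZNF274 lay between 25.3 and 38.9 CPM in resistant vehicle tumours and between 21.6 and 32.4 CPM in parental ones, with an average log2 fold change of 0.21 (SE 0.08, adjusted p = 0.0218 by edgeR), a call lost without resistant combination 1 (0.0638). ZNF91, ZNF350 (a partner of BRCA1), ZNF577 and ZNF671 were not called. ZNF671 had 1.70, 2.28, 2.26 and 2.26 CPM in resistant vehicle tumours and 2.09, 3.04, 4.89 and 3.88 CPM in parental ones, with an average of -0.01 (SE 0.17). The other 7 were under the minimum over all 29 libraries: ZNF382 with 58 counts, ZNF677 with 14, ZNF667 with 12, ZNF582 with 9, ZNF154 with 2, and ZNF132 and ZNF471 with 1 each. The reads do not tell whether these genes are methylated.

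The second comparison asked what decitabine did to the members. No member was called with decitabine against vehicle in parental tumours by edgeR, where 0.793% of all genes were higher and 0.874% lower. At an unadjusted p under 0.05 there were 28 members of 175, and DESeq2 called 2, both lower. In resistant tumours 1 member was higher and 1 lower, against 2.03% and 1.30% of all genes. With decitabine added to doxorubicin no member was called by edgeR or DESeq2 in either line (0.593% of all genes higher and 0.0667% lower in resistant tumours, 0.259% and 0.0445% in parental ones), with 14 and 20 members at an unadjusted p under 0.05. In the average over both lines and both backgrounds 2 members were higher and 2 lower, against 3.96% and 2.85% of all genes, and the median log2 fold change was 0.07 for the members and -0.01 for all genes.

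The 2 members raised on average were ZNF570 and ZNF569, which lie head to head with their starts overlapping on opposite strands by 1690 bases (chr19:37411155-37469275 for ZNF569 and chr19:37467585-37488652 for ZNF570). ZNF569 is described as a repressor of MAPK signalling. In resistant tumours ZNF570 had 4.93, 2.26 and 4.47 CPM with decitabine, against 1.94, 2.28, 3.17 and 2.71 CPM with vehicle, and 4.33, 3.63 and 5.83 CPM with the combination, against 3.20, 3.05, 3.58 and 2.74 CPM with doxorubicin. In parental tumours it had 9.68, 14.2, 10.7 and 13.2 CPM with decitabine, against 7.42, 8.69, 7.20 and 12.1 CPM with vehicle, and 11.2, 11.2, 12.3 and 9.37 CPM with the combination, against 9.62, 9.0 and 7.04 CPM with doxorubicin. The combination exceeded doxorubicin without overlap in resistant tumours, and the other pairs of groups overlapped. Its average log2 fold change with decitabine was 0.50 (SE 0.12, adjusted p = 0.0119 by edgeR).

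ZNF569 averaged 0.40 (SE 0.10, adjusted p = 0.0150 by edgeR). It had 14, 15.5 and 13.4 CPM with decitabine, against 12.1, 8.11, 14.5 and 7.46 CPM with vehicle in resistant tumours, and 20.7, 22.1, 22.2 and 16.2 CPM, against 17.6, 19.1, 17.7 and 19.4 CPM, in parental ones. With the combination it was higher than with doxorubicin in every library but 1: 23.8, 14.5 and 14.1 CPM, against 11.4, 8.72, 13.4 and 12.6 CPM, in resistant tumours, and 23.8, 25.2, 31.1 and 20.2 CPM, against 19, 20.6 and 15.6 CPM, in parental ones, where the lowest combination library was below the highest doxorubicin one. Both calls held when any 1 of the 29 libraries was left out, with adjusted p of at most 0.0462 for ZNF569 and 0.0339 for ZNF570. Because the 2 genes overlap on opposite strands and the strand setting is not given, part of their counts could be shared. Both were also lower in resistant tumours, ZNF570 by an average of -1.52 (SE 0.12) and ZNF569 by -0.63 (SE 0.10), and with decitabine ZNF570 in resistant tumours stayed below its level in each parental vehicle library.

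ZNF264, in block 16, was the member raised in resistant tumours. It had 29.6, 26.0 and 23.0 CPM with decitabine, against 13.8, 18.2, 12.2 and 8.81 CPM with vehicle, without overlap (log2 fold change 0.99, adjusted p = 0.0420 by edgeR). Its parental vehicle level was 29.9, 31.7, 30.4 and 33.5 CPM. With the combination it had 23.4, 4.83 and 24.1 CPM, against 16.0, 15.3, 17.2 and 13.5 CPM with doxorubicin, where resistant combination 2 was far below the other libraries. The call was lost in 6 of the 7 fits without 1 library (adjusted p up to 0.131), and also when resistant decitabine 2 and parental vehicle 3 were both left out (0.136). The log2 fold change stayed between 0.82 and 1.17 over the 7 fits without 1 library.

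ZNF333 was the member lowered, both in resistant tumours (log2 fold change -0.71, adjusted p = 0.0180 by edgeR) and on average (-0.28, SE 0.08, adjusted p = 0.0341). It had 12.3, 11.3 and 9.37 CPM with decitabine, against 17.7, 15.7, 18.1 and 20.6 CPM with vehicle in resistant tumours, and 12.9, 16.1, 12.1 and 16.0 CPM, against 17.9, 18.5, 18.8 and 25.1 CPM, in parental ones, without overlap in either line. With the combination against doxorubicin it had 17.1, 14.5 and 16.9 CPM, against 17.6, 19.2, 17.4 and 17.1 CPM, in resistant tumours, and 23.6, 24.2, 21.6 and 23.3 CPM, against 18.5, 24.8 and 15.4 CPM, in parental ones, where all 4 combination libraries lay above 2 of the 3 doxorubicin ones. ZNF579 was the second member lowered on average (-0.37, SE 0.11, adjusted p = 0.0452). The call of ZNF333 in resistant tumours was lost without resistant decitabine 2, resistant decitabine 3 or resistant vehicle 4 (adjusted p up to 0.0936). Its average call was lost in 9 of 29 fits without 1 library (adjusted p up to 0.0828), that of ZNF579 in 22 of 29 (up to 0.102), and ZNF579 was also not called by DESeq2 (0.0562).

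**Figure D5:**
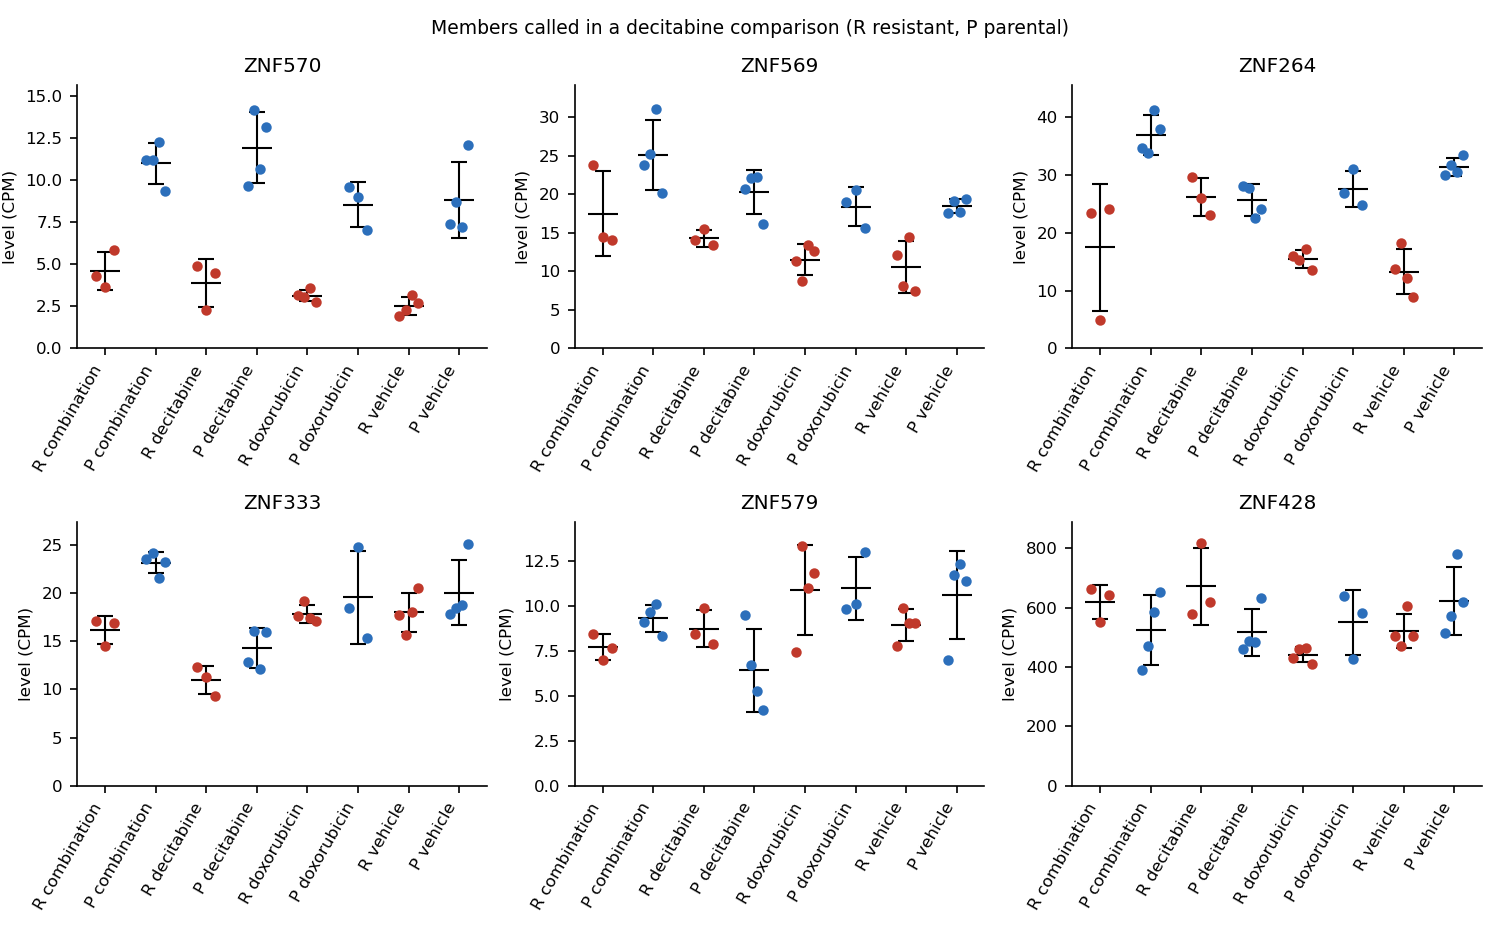
Level in CPM of the 6 members called in a decitabine comparison, in each library, by treatment with the resistant group left of the parental one; points are libraries, bars the mean ± SD. For ZNF264 the resistant libraries given decitabine lie between 23.0 and 29.6 and those given vehicle between 8.81 and 18.2, and for ZNF333 the decitabine libraries of each line lie below its vehicle libraries.

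The response to decitabine differed between the lines for 1 member, ZNF428 (difference in log2 fold change 0.60, adjusted p = 0.0440 by edgeR), against 2.07% of all genes with a greater and 1.25% with a smaller response in resistant tumours. ZNF428 had 578, 818 and 619 CPM with decitabine, against 504, 471, 606 and 506 CPM with vehicle, in resistant tumours, and 461, 489, 485 and 634 CPM, against 516, 571, 781 and 618 CPM, in parental ones. The call was lost in 19 of 29 fits without 1 library (adjusted p up to 0.109), and also when resistant decitabine 2 and parental vehicle 3 were both left out (0.155).

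Members lower in resistant tumours were also followed under decitabine in groups outside the comparison that chose them. The filter, scaling and spread estimate still came from all 29 libraries. Of the 23 members lower under doxorubicin, 19 passed the filter within each line, and of the 40 lower under vehicle, 35 did. Both lists include ZNF439, ZNF525, ZNF829 and ZNF844, which were nearly uncounted in resistant tumours. The 23 members lower under doxorubicin had a median log2 fold change of 0.44 with decitabine against vehicle in resistant tumours, 20 of the 23 above 0 and 1 of them called, while the other 152 members had a median of 0.11. The 1086 genes of all kinds that were lower under doxorubicin had a median of 0.01. Library by library, the median over the 23 was 0.33, 0.39 and 0.46 in the 3 decitabine libraries relative to the vehicle mean, and 0.13, 0.00, 0.16 and -0.29 in the 4 vehicle libraries, each relative to the other 3. The fitted median was 0.32 without resistant vehicle 4. In parental tumours the same 23 members had a median of -0.06. The 40 members lower under vehicle, followed in the combination against doxorubicin, gave a smaller value: a median of 0.08, with 25 of 40 above 0 and none called, against 0.08 for the 1550 genes lower under vehicle. The 3 resistant combination libraries differed, at 0.34, -0.48 and 0.14, the lowest being resistant combination 2, without which the median was 0.21, and without resistant combination 1 it was -0.02. In parental tumours the same 40 had a median of 0.16, with 28 of 40 above 0, and the other 135 members also had a median of 0.16. These medians describe the lists and were not tested.

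Doxorubicin changed no member by edgeR or DESeq2 in either line. All genes gave 0.00% higher and 0.00% lower with doxorubicin in resistant tumours and 0.0371% and 0.193% in parental ones, and 9 and 11 members had an unadjusted p under 0.05. With the combination against vehicle no member was called by either tool, against 0.911% higher and 0.215% lower of all genes in resistant tumours and 0.645% and 0.385% in parental ones, with 11 and 19 members at an unadjusted p under 0.05. Within a line, the comparisons with vehicle share the vehicle libraries and are not independent of each other.

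Of the 26 listed genes that encode KRAB cofactors, heterochromatin proteins and the DNA methylation machinery, 10 were lower and 2 higher in resistant tumours in the line average, read against the 23.4% and 22.6% of all genes given above. Lower were DNMT1, the maintenance DNA methyltransferase (-0.86, SE 0.08), DNMT3B, DAXX (-0.56, SE 0.06), EHMT2, HDAC1, HDAC2, CBX3, SETDB1 (-0.29, SE 0.09), MORC2 and SMARCAD1. Higher were CBX5, which encodes the heterochromatin protein HP1 alpha (0.34, SE 0.06), and MPHOSPH8 (0.20, SE 0.06). TRIM28 did not pass, with 36.8 ± 4.49 CPM over the 14 resistant libraries and 35.5 ± 5.09 CPM over the 15 parental ones (SD). DNMT1 lies between blocks 2 and 3 (chr19:10133345-10231286), in the stretch where most genes were lower, at 143 ± 26.3 CPM over the resistant and 257 ± 55.9 CPM over the parental libraries (SD). On average over the decitabine comparisons TRIM28 was lower (-0.28, SE 0.06, adjusted p = 0.00237 by edgeR) and FAM208A, a subunit of the HUSH silencing complex, was higher (0.27, SE 0.07, adjusted p = 0.0127).

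The members differ in their products. A match to the core of the KRAB domain, with at most 2 mismatches, was found in the coding sequences of 142 of the 186 members, and the median number of C2H2 zinc finger matches was 12, up to 32. Of the members with a match 45 of 133 tested were lower and 15 higher in the line average (33.8% and 11.3%). Of those without a match 10 of 42 were lower and 5 higher (23.8% and 11.9%), against 23.4% and 22.6% of all genes. Members with a match were counted at lower levels, with a median over members of 5.10 CPM, against 14.2 CPM in those without one. A KRAB domain with more mismatches would be missed, possibly across a whole cluster of related genes. Members without a match are therefore not shown to lack the domain. In block 12 only ZNF283 had a match, and 2 of 18 tested there were lower, so that the split by match is partly one by position. It cannot be read as a split between proteins with and without KRAB. All 6 of the nearly uncounted genes had a KRAB match, and 6 to 15 finger matches. The promoters of lower members held a median of 20 CG pairs, those of higher members 22 and those of members not called 22. No difference between these classes was tested.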

How the data were processed

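The authors deposited raw counts of reads per gene for 29 tumour libraries, made with the Lexogen QuantSeq FWD kit and poly(A) selection, per the labels. Cutadapt, STAR 2.7.3a, featureCounts and DESeq2 with the build GRCh38.p10 are named in the submitters' processing notes. The annotation release, strand setting and handling of mouse reads are not given in the sources used here.

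Gene IDs were matched to GENCODE 29 (58039 of 58302), and promoters came from RefSeq (GRCh38.p14). Low counts were removed by filterByExpr (10 in a library, 15 in all), libraries were scaled by TMM (factors 0.896 to 1.069), and 8 group means entered 1 robust quasi-likelihood fit in edgeR 4.0.16 under R 4.3.3. Benjamini-Hochberg adjustment ran over all 13495 genes of a contrast, and adjusted p-values without a named tool are from this fit. CPM are on scaled library sizes, computed from the deposited counts. The fit was also tested on simulated data. All 39 pairs of replicates differed by more than sampling noise (chi-square over its degrees of freedom at least 3.94).

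Members and lists were chosen with earlier results of these data known. The genes named were the 8 most abundant members, the called members with the largest changes per contrast (up to 8 per direction for the line under vehicle, the line average and the decitabine average, otherwise up to 5), members without a count in a whole group and with at least 20 in another, and a list with known roles. Neighbours of nearly uncounted genes, and members that fell on 1 side in all 4 treatments or in all libraries, were named after their values were seen. The alternatives tried were DESeq2 1.42.0 and its size factors, no filter, a CPM filter (above 1 in at least 3 libraries), only the groups compared, a replicate block, and leaving out single libraries or the 2 that stood apart (resistant decitabine 2 and parental vehicle 3).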

Additional observations from a re-analysis of the deposited data

Results flagged for a closer look

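In groups of 4 libraries, 83 combinations of a gene and a group were examined for 1 library far from the other 3, among members the results turn on. In 7 the gap to the nearest other library passed Dixon's limit, and chance alone marks about 1 in 20. ZNF439 was at 5.96 CPM in parental combination 1, against 4.17 to 4.32 CPM in the other 3. ZNF844 was at 6.27 CPM in parental decitabine 4, against 4.37 to 4.68 CPM. ZNF320 was at 13.9 CPM and ZNF333 at 25.1 CPM in parental vehicle 4, against 8.49 to 9.34 and 17.9 to 18.8 CPM. ZNF266 was at 4.47 CPM in resistant doxorubicin 3, against 2.74 to 2.83 CPM. ZNF121 was at 75.2 CPM in resistant vehicle 2, against 60.9 to 63.1 CPM. ZNF428 was at 634 CPM in parental decitabine 4, against 461 to 489 CPM.

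The response to decitabine differed between resistant and parental tumours for ZNF428, by 0.60 on the log2 scale (adjusted p = 0.0440 by edgeR), with the limits given beside it in the report.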

How the results depend on the processing

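No result that passed its test changed direction under any alternative. Among the values of named members that did not pass, 7 crossed 0, with ZNF439 on average over decitabine moving most, from -0.96 to 0.14 on the log2 scale. Of the calls and values of named members, 2267 kept their side of the threshold, 134 were no longer called and 10 became called. Counts of members called in the line comparisons stayed within 1.5 times under the alternatives that kept all groups whole. Without single libraries they ranged from 29 to 42 under vehicle, 20 to 31 under decitabine, 17 to 23 under doxorubicin, 21 to 38 under the combination and 70 to 80 in the average.

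Decitabine counts, few to begin with, depended on the settings, and the cause was not tested. Without the filter the counts were 6 in parental and 5 in resistant tumours, 1 and 2 with decitabine added to doxorubicin, 3 and 1 for the combination against vehicle (parental and resistant), and 8 for the difference between the lines. DESeq2 called 2 in parental tumours and 4 for the difference between the lines. Without the 2 libraries that stood apart, 0 were called in resistant tumours and 0 for the difference, and 0 in resistant tumours when only the groups compared entered the fit. The CPM filter left 0 for the difference. Without single libraries the ranges were 0 to 4 in parental tumours, 0 to 5 in resistant tumours, 2 to 6 on average, 0 to 7 for the difference, 0 to 1 for doxorubicin in parental tumours and 0 to 2 for the combination in resistant tumours, and 0 to 0 for doxorubicin in resistant tumours, decitabine on doxorubicin in both lines and the combination in parental tumours.

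Replicate numbers did not pair the libraries: deviations from the group means correlated by 0.006 on average between libraries of the same number (-0.461 to 0.427) and by -0.001 between others. With the replicate block 1 member was called with decitabine in parental tumours and 2 for the difference between the lines, and the block moved no other count by over 1.5 times.

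The summed level of all members in parental doxorubicin tumours was 2435 CPM with unscaled library totals, against 2567. Without single libraries the sums ranged from 2264 to 2599 (resistant combination), 2632 to 2762 (parental combination), 2415 to 2620 (resistant decitabine), 2354 to 2471 (parental decitabine), 2206 to 2261 (resistant doxorubicin), 2509 to 2615 (parental doxorubicin), 2074 to 2220 (resistant vehicle) and 2616 to 2814 CPM (parental vehicle). Depth limits the precision of most members, of which the median had 780.5 counts over 29 libraries.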
